A study of Mus musculus with 12 samples.

Results

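The genes described here are the nuclear genes of the mitochondrial respiratory chain in mouse retina. They were taken by name from the gene table: symbols that begin with Nduf, Uqcr, Atp5 or Cox4 to Cox8, together with Sdha, Sdhb, Sdhc, Sdhd and Cyc1, with the 14 names that end in -ps left out. This gave 99 of 55487 genes. Complex I had 41 of them and its Ndufaf assembly factors 8, complex II had 4, complex III 9, complex IV 19 and complex V 18. Of the 99, 94 reached a mean above 1 FPKM, the deposited abundance unit scaled for transcript length and library size, in at least 1 group and were tested among 16471 genes. The 5 that did not are Ndufa11b, Ndufs6b, Cox7b2, Cox8c and a second entry of Atp5o listed at 0.

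RNA-seq of whole retina was available as 12 libraries, 2 in each of 6 groups. WT retinas were from C57BL/6J mice, sh*Pax6* retinas from mice that received AAV2.7m8 with an shRNA against *Pax6* by intravitreal injection at 2 months of age, and JNK3 KO retinas from Jnk3-/- mice. Eyes of each genotype received either 1 μL PBS or 1 μL of 40 mM NMDA, that is 40 nmol, and retinas were collected the day after. NMDA overstimulates glutamate receptors and kills retinal ganglion cells (RGCs), and the study asked whether PAX6 and JNK3 act in that response. Each library was made from poly(A) RNA pooled from several retinas. No library from retinas with the scrambled shRNA vector was analysed here, so infection and *Pax6* knockdown cannot be told apart. Nothing in the sources says that the 2 libraries of a group came from separate sets of animals, so p-values measure the spread between these libraries, which may be technical.

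The respiratory chain passes electrons from NADH (complex I) and succinate (complex II) through complex III to complex IV, which reduces oxygen. Complexes I, III and IV pump protons and complex V, the ATP synthase, uses the proton gradient to make ATP. All complexes except complex II mix subunits from the nucleus with subunits encoded in mitochondrial DNA, so the nuclear genes are only one side of the supply. Photoreceptors and RGC axons are among the most mitochondria-rich parts of the retina. In bulk tissue, fewer cells of a type and less RNA per cell cannot be told apart.

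The libraries differed in ways that touch every value below. The FPKM of a library summed to between 541210 and 576922 over all genes in 10 libraries, but to 805627 and 820180 in the 2 WT NMDA libraries. Under PBS *Pax6* measured 173 and 177 FPKM in WT against 94.6 and 92.8 in sh*Pax6*, a log2 difference of -0.90 (adjusted p = 0.0001), and *Mapk10*, which encodes JNK3, 42.8 and 50.7 in WT against 9.47 and 8.75 in JNK3 KO, a log2 difference of -2.34 (adjusted p = 0.0215, limma). *Mapk10* was as low in WT NMDA (8.98 and 6.00) as in the knockout, so it identifies the genotype only under PBS. *Pax6* was no higher in WT NMDA (55.4 and 53.8) than in sh*Pax6* NMDA (67.5 and 58.7), so it too separates these groups only under PBS. Under NMDA, WT libraries had fewer RGC marker transcripts (11 of 12 markers lower, summed FPKM 636.3 to 657.5 under PBS and 338.6 to 355.7 under NMDA), more neutrophil transcripts (6 of 8 higher, 212.5 to 235.7 and 1953.1 to 1989.9) and more red blood cell transcripts (5 of 5 higher, 97.3 to 107 and 613 to 650). In sh*Pax6* the neutrophil markers summed to 5.2 to 6.1 under PBS and 67.0 to 74.3 under NMDA, with Ly6g and Ngp at 0. In JNK3 KO they summed to 156.3 to 169.8 and 13.3 to 14.2. RGC markers in sh*Pax6* summed to 206.4 to 206.8 under PBS and 72.4 to 77.7 under NMDA, and in JNK3 KO to 597 to 642 and 172.7 to 173.4. Amacrine markers were lower after NMDA in WT (8 of 10), sh*Pax6* (10 of 10) and JNK3 KO (4 of 10). Horizontal cell markers were lower in WT (5 of 5) and sh*Pax6* (2 of 5), and 1 of 5 was higher in JNK3 KO. Müller glia markers summed to 1146 to 1186 in WT PBS, 2294 to 2414 in sh*Pax6* PBS and 3695 to 3898 in sh*Pax6* NMDA. Of 8, 4 were higher and 1 lower in sh*Pax6* than in WT under PBS, and 5 higher and 1 lower after NMDA in sh*Pax6*. Rod markers were higher in sh*Pax6* than in WT under PBS (10 of 10, 36397 to 39340 against 27352 to 27578) and lower after NMDA there (8 of 10, 22812 to 23228). In sh*Pax6* all 8 cone markers were lower after NMDA (1216 to 1316 and 309 to 332), and microglia and macrophage markers were higher (6 of 10, 166 to 181 and 545 to 580). In JNK3 KO 8 of 10 rod and 7 of 8 cone markers were lower after NMDA. In WT 6 of 10 rod markers were higher and 2 lower after NMDA (27352 to 27578 and 30076.5 to 30104.1). Of 8 cone markers in WT 2 were higher and 3 lower (644 to 669 and 1040 to 1103). Of 8 bipolar markers in WT 1 was higher and 6 lower, and of 8 Müller glia markers 2 were higher and 5 lower. Of 7 lens markers tested 5 were higher and 0 lower in WT. The part of these cell types in the results was not tested.

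Under PBS the chain was abundant in WT retina. The median of the 99 members stood at 116 and 128 FPKM in the 2 libraries, and the 99 genes summed to 13130 and 13988 FPKM, that is 2.43% and 2.54% of all FPKM. FPKM are per length, so levels can be set side by side between genes. Complex I contributed 4602 and 4953 FPKM, complex V 4062 and 4318, complex IV 2618 and 2732, complex III 1394 and 1503, and complex II only 303 and 325. Among subunits with named roles, Atp5b, the catalytic beta subunit of the ATP synthase, stood at 638 and 704 FPKM. Ndufa4, first assigned to complex I by name and now regarded as a complex IV subunit, stood at 545 and 605. Atp5a1, the alpha subunit that alternates with beta in the ATP synthase ring, stood lower, at 296 and 302. Sdha, the flavoprotein of succinate dehydrogenase, stood at 131 and 137, above its partners Sdhb, the iron-sulfur subunit, at 65.2 and 68.3, and the membrane anchors Sdhc, at 54.6 and 66.3, and Sdhd, at 52.1 and 53.9. Ndufs1, the iron-sulfur subunit of the electron-entry arm of complex I, was one of the lower core subunits at 45.8 and 49.6. The plot of summed FPKM by complex shows these levels in every library.

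**Figure D1:**
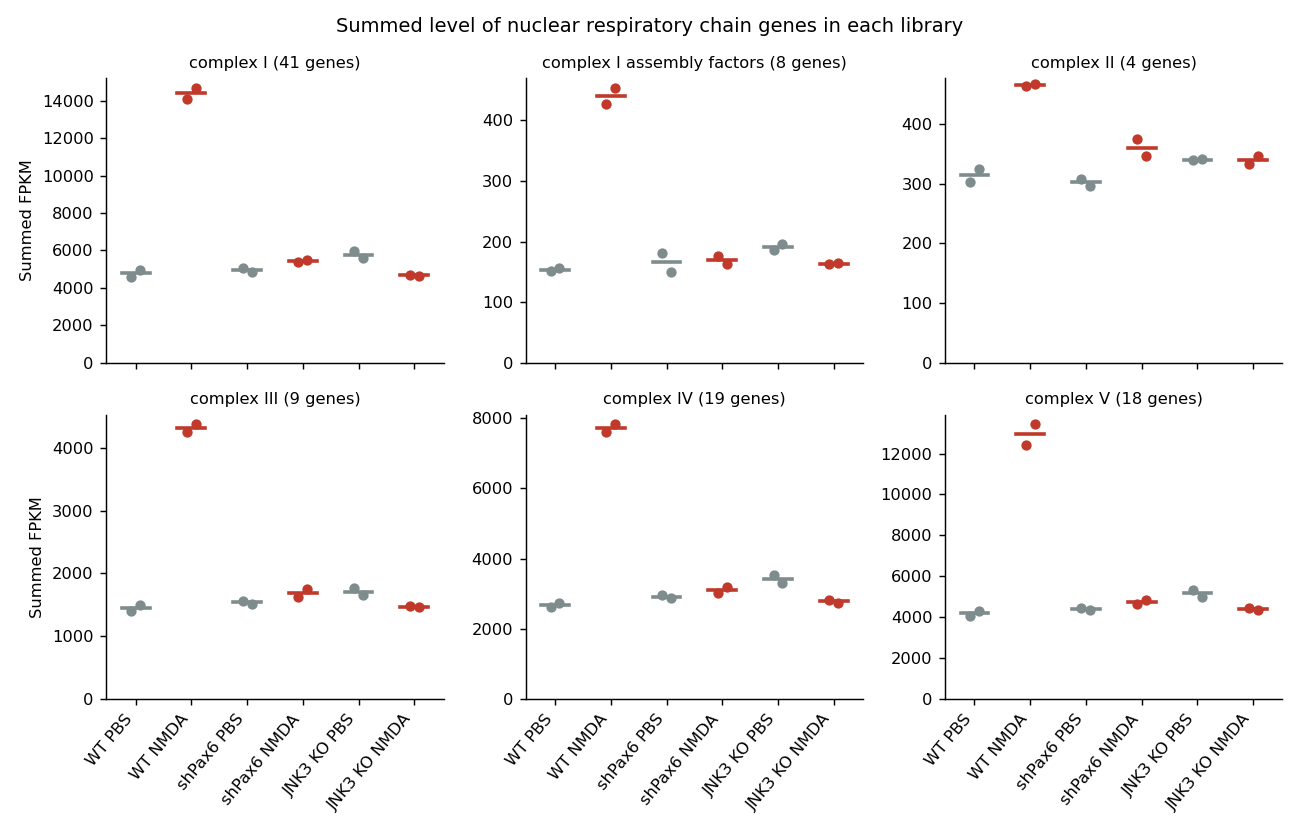
Summed FPKM of each complex, with axes from 0, 1 point per library and a bar at the mean of the 2 libraries of each of the 6 groups. The 2 WT NMDA points lie above all others in every complex, with complex I at 14099 and 14684 FPKM against 4602 and 4953 under PBS.

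In WT retina nearly all tested members had higher gene-level FPKM after NMDA than after PBS. Of the 94 members 89 were higher and 0 lower at an adjusted p below 0.05 (limma, Benjamini-Hochberg over all 16471 genes), where 26% of all genes were higher and 33.8% lower. At an unadjusted p below 0.05, 0 members were lower as well. The median log2 difference on the log2(FPKM + 0.1) scale was 1.51, a fold of 2.85, with a median standard error of 0.089, while the median over all genes was -0.09. At an unadjusted p below 0.05 and a log2 difference above 1, which are 2 of the study's criteria without its limit on the variance-mean ratio, 75 members were higher, against 14.8% of all genes. In 91 of 94 members both NMDA libraries stood above both PBS libraries, which was so for 36.9% of all genes. As a share of all FPKM, the chain rose from 2.43% and 2.54% to 4.88% and 5.03%. This comparison carries a strong dependence on transcript length, which is described with the length classes and applies to every count of risen members. The counts also depend on the transcript models summed. With coding models only and a correction for length, 39 of 92 members were higher and 17 lower, against 25.3% and 26.5% of genes.

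In complex I, 38 of 39 tested subunits rose, with a median log2 difference of 1.51. The highest was Ndufa3, an accessory subunit, at 161 and 194 FPKM under PBS and 840 and 900 under NMDA. Its log2 difference was 2.30 (SE 0.10, adjusted p = 1.68e-07). Ndufv1, the flavoprotein that accepts electrons from NADH, went from 100.95 and 113.03 to 288 and 283. Its log2 difference was 1.42 (SE 0.06). The lowest was Ndufs1, at 55.1 and 54.0 FPKM under NMDA, with a log2 difference of 0.19 (SE 0.06, adjusted p = 0.0217). The core subunits of complex I thus differed among themselves by more than a log2 unit. The only subunit of complex I not called was Ndufa4l2, which is treated with the isoforms.

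All 8 Ndufaf assembly factors, which build complex I and are not part of the finished enzyme, rose, with a median log2 difference of 1.43. Ndufaf8 was the highest at 2.19, from 26.6 and 20.98 to 109.3 and 106.7 FPKM, and Ndufaf4 the lowest at 0.43 (SE 0.17, adjusted p = 0.0485), from 17.1 and 19.9 to 24.2 and 25.8.

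Complex II stood apart in size. Its 4 subunits are all nuclear and it also works in the citrate cycle. Sdhb rose by a log2 difference of 1.3 (SE 0.07), to 163 and 165 FPKM, Sdhc by 0.54 (SE 0.12, adjusted p = 0.00299), to 90.2 and 84.7, and Sdhd by 0.45 (SE 0.09, adjusted p = 0.00187), to 75.3 and 69.5. Sdha was at 135 and 149 FPKM under NMDA, a log2 difference of 0.08 (SE 0.07, adjusted p = 0.343, 95% interval -0.08 to 0.24). The interval bounds the change of Sdha below that of each of its 3 partners as estimated, but the difference between genes was not tested.

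In complex III, 8 of 9 rose, with a median of 1.39. The small subunit Uqcrq was highest at 2.25 (SE 0.12), from 163 and 171 to 800 and 785 FPKM. The 2 catalytic subunits moved less: Cyc1, cytochrome c1, rose by 0.95 (SE 0.08), from 114 and 133 to 230 and 244 FPKM, and the Rieske iron-sulfur protein Uqcrfs1 by 0.79 (SE 0.07), from 66.2 and 63.8 to 118 and 107. Of the core proteins, Uqcrc1 rose by 1.09 (SE 0.08), from 117 and 124 to 249.47 and 265.32 FPKM. Uqcrc2 was the only member with a negative estimate, at 100 and 109 FPKM under PBS and 101.39 and 84.39 under NMDA, a log2 difference of -0.18 (SE 0.10, adjusted p = 0.17).

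In complex IV, 15 of 17 rose, with a median of 1.59. Cox4i1, the main nuclear subunit that starts assembly around the mitochondrially encoded core, went from 355 and 378 to 1079 and 1160 FPKM, a log2 difference of 1.61 (SE 0.06, adjusted p = 5.67e-08). Cox5b was highest at 2.01 (SE 0.11), from 199 and 236 to 826 and 926 FPKM, and Cox7a2l, which links complexes III and IV into supercomplexes, was lowest at 1.05 (SE 0.05), from 157 and 157 to 329 and 322. Cox5a rose by 1.49 and Cox6c by 1.36. Cox6a2 and Cox8b were not called, with both genes near 0 in most libraries.

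In complex V, 17 of 17 tested members rose, with a median of 1.64. Atp5e, the epsilon subunit of the central stalk, rose most of all 94 members, from 208 and 230 to 1115 and 1268 FPKM, a log2 difference of 2.44 (SE 0.09, adjusted p = 8.93e-08). Atp5b went from 638 and 704 to 2408 and 2650 FPKM, a log2 difference of 1.91 (SE 0.06). Atp5a1 rose least, from 296 and 302 to 415 and 420, a log2 difference of 0.48 (SE 0.04, adjusted p = 9.78e-06). Alpha and beta are present in equal numbers in the enzyme, and their gene values moved by unequal amounts here. The rise of Atp5b came from models other than its full coding model, as described with the transcript models, so its gene value does not give the change of the coding transcript. The plot of differences by complex shows all members in the 3 responses.

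**Figure D2:**
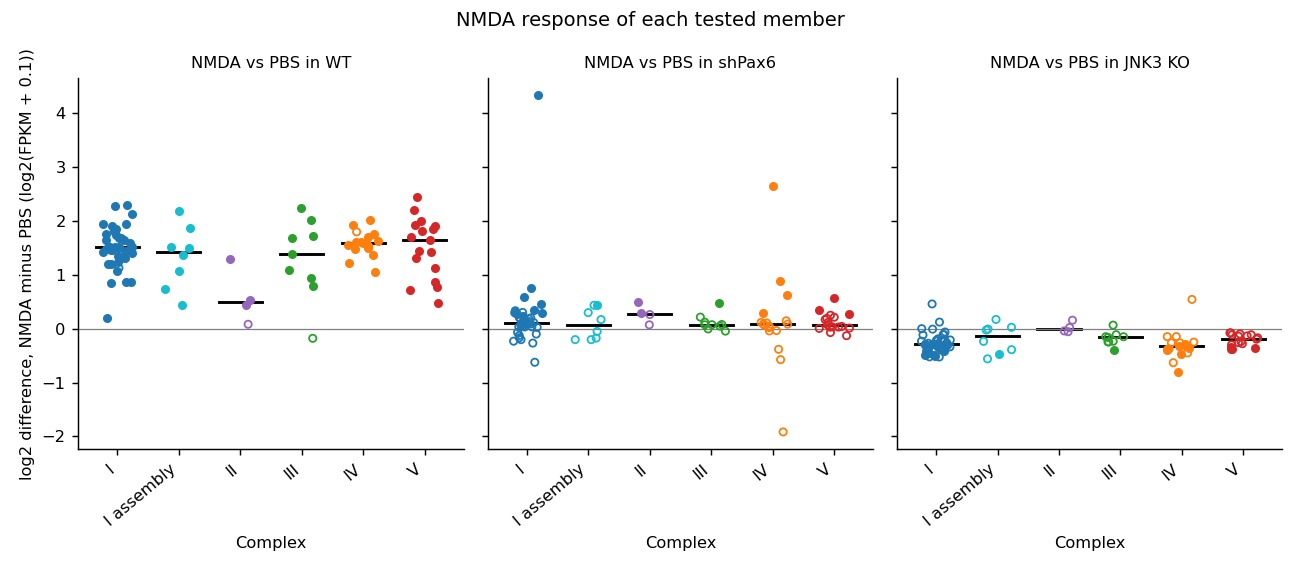
Log2 difference between NMDA and PBS on the log2(FPKM + 0.1) scale for each of the 94 tested members, by complex, in WT, shPax6 and JNK3 KO retina, with filled points called at an adjusted p below 0.05 and black bars at the medians. The WT points centre on 1.51, the shPax6 points on 0.09 and the JNK3 KO points on -0.25.

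Length class separated genes in WT retina, members or not. Spliced lengths were those of the most abundant transcript of a gene in GENCODE M21. Members are short, with a median of 679 bases against 2352 for all genes tested, and 69 of 94 (73.4%) lie under 1 kb against 20.9% of all genes. Over all genes the median log2 difference in WT was 0.85 in the class under 1 kb, 0.59 in that of 1 to 2 kb, -0.20 in that of 2 to 4 kb and -1.07 in the longest. The members' medians were 1.59 (69 genes), 1.09 (21 genes) and 0.31 (4 genes) in the first 3 classes, and no member was over 4 kb. Members therefore stood above the other genes of their class in each of the 3 classes. In sh*Pax6* and JNK3 KO the classes were close together, from 0.19 under 1 kb to -0.04 over 4 kb and from -0.10 to 0.13. When each library was corrected for its trend on length, the members' median in WT fell to 0.62, with 76 members higher and 3 lower, against 23.9% of all genes higher. The median of complex II was then 0.01, with 2 of its 4 genes higher and 2 lower, among them Sdhc (-0.43) and Sdhd (-0.30), while complexes I, III, IV and V had medians of 0.62, 0.64, 0.66 and 0.73. Whether the length dependence in WT NMDA is a property of the RNA or of the libraries was not tested.

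**Figure D3:**
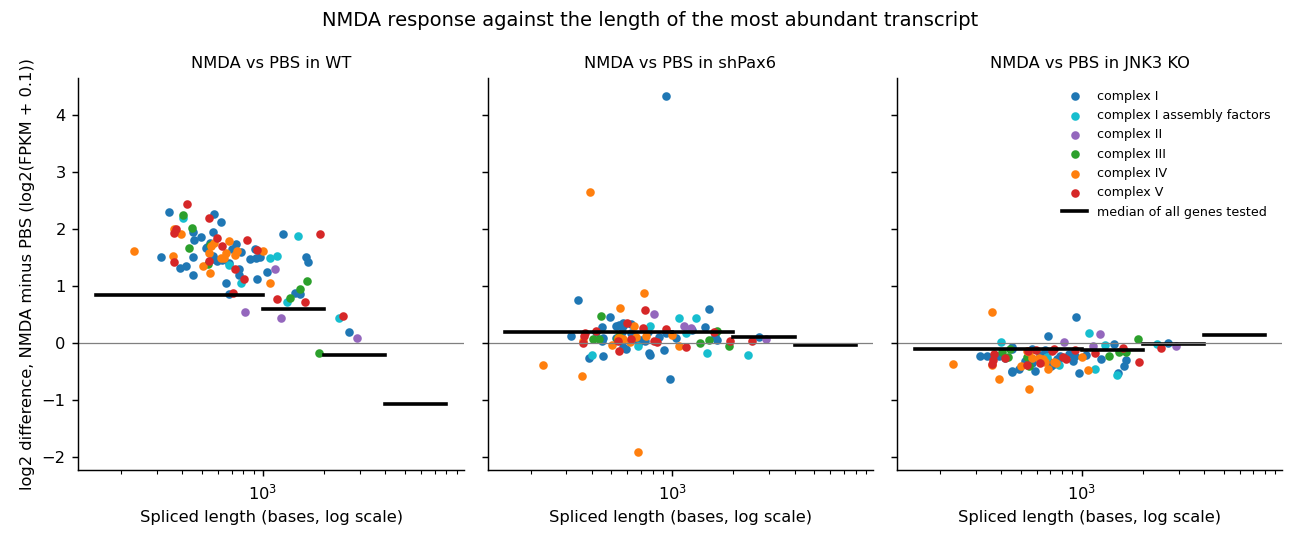
Log2 difference between NMDA and PBS of each tested member against spliced length on a log axis, coloured by complex, in WT, shPax6 and JNK3 KO retina, with black lines at the median of all genes tested in each length class. In WT the line steps from 0.85 down to -1.07 and most members lie above it, while in the other 2 panels the line is nearly flat.

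The gene values sum all transcript models of a gene, and in WT NMDA the models did not move together. Protein-coding models made up 87.3% to 89.8% of the members' FPKM in 10 libraries and 82.6% and 82.4% in WT NMDA. For Atp5b, at chr10:128083273-128090391 on the plus strand of GRCm38, the full coding model Atp5b-201 (1916 bases, 10 exons) was at 574 and 566 FPKM under PBS and 605 and 561 under NMDA, a range that overlaps. The rise came from Atp5b-206, a processed transcript of 478 bases and 3 exons that starts 1839 bases and ends 118 bases from the 3′ end of the gene, which went from 36.9 and 105 to 1449 and 1679 FPKM. Another model, Atp5b-203 (600 bases), went from 1.42 and 1.32 to 327 and 385 FPKM. In the other groups Atp5b-206 lay between 0 and 192 FPKM.

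Sdhb and Cox4i1 differed from Atp5b in this. Sdhb-201, the coding model of Sdhb at chr4:140961203-140979193, went from 58.7 and 64.2 to 160 and 164 FPKM, and Cox4i1-201, of Cox4i1 at chr8:120668222-120674207, from 340 and 369 to 1032 and 1125. The coding model of Sdha fell from 122 and 127 to 100.59 and 98.55 FPKM, so its unmoved gene value was the sum of models that moved in opposite directions.

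A fit on protein-coding models only, an alternative chosen after these values were seen, kept most calls. It tested 92 members, since Ndufb4c and Cox6c2 have no coding model, and called 79 higher and 2 lower, with a median log2 difference of 1.48, against 26.5% of genes higher. The 2 lower were Ndufs1 (-0.50) and Sdha (-0.32). Of the 87 members with a coding model that were higher at the gene level, 79 were again higher, Ndufs1 was lower and 7 were not called, Atp5b, Ndufa10 and Ndufaf4 among them. With the correction for length added, the median fell to 0.17, with 39 higher and 17 lower of 92, against 25.3% of genes higher and 26.5% lower. Complex III had 5 higher and 0 lower of 9, complex I 15 and 7 of 38, complex IV 6 and 2 of 16, complex V 9 and 6 of 17, and complex II 1 and 2 of 4. Cox4i1 (0.35) and Sdhb (0.46) were among those still higher. The size of the rise in WT, and its presence for single genes such as Atp5b and Ndufs1, thus rested on which models were counted and on the treatment of length.

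**Figure D4:**
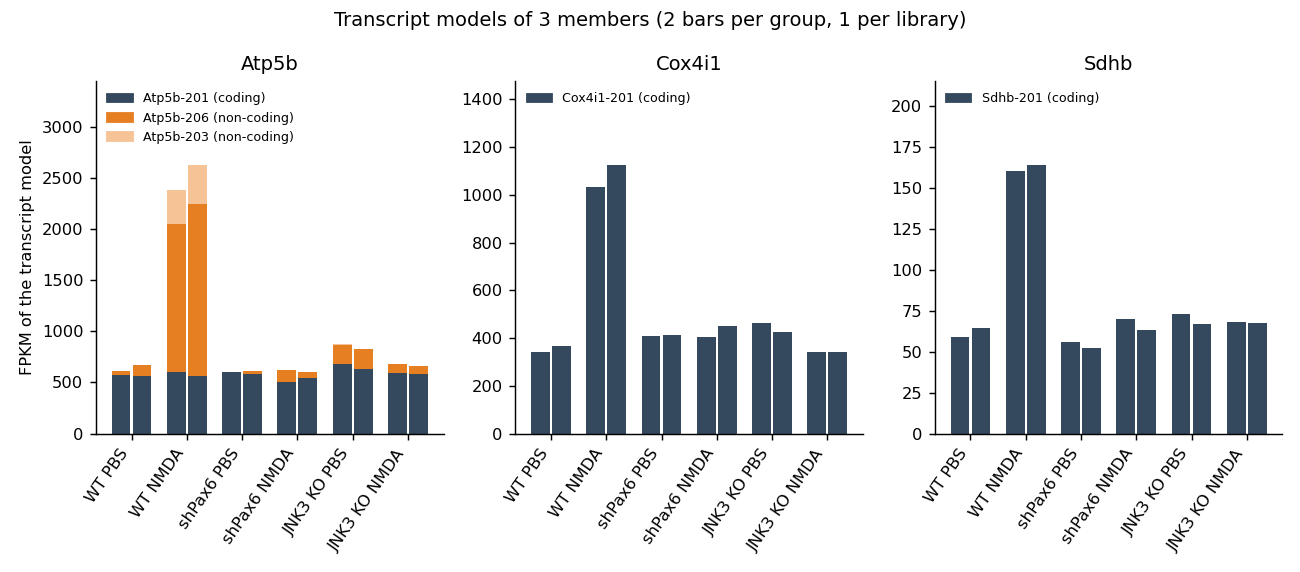
FPKM of transcript models of Atp5b, Cox4i1 and Sdhb as stacked bars, 1 bar per library in the 6 groups, dark for the coding model and orange for non-coding models. In WT NMDA the coding model Atp5b-201 (605 and 561 FPKM) stays near its PBS level while the short model Atp5b-206 (1449 and 1679) rises, and the coding models of Sdhb and Cox4i1 rise themselves.

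Promoter sequence is a feature that the choice by name did not use. Nuclear respiratory genes are known targets of the activator NRF1, of GABP, an ETS-family factor, and of YY1, so RefSeq promoter windows of 300 bases (250 before and 50 after the start, GRCm38.p6) were searched on both strands for 1 exact 8-letter word each. A window was given for 75 of the 94 tested members and for 27025 genes in all. The NRF1 word GCGCATGC, which reads GCATGCGC on the other strand, was in 12 members (16%) and in 3.05% of all windows. The YY1 word AAGATGGC was in 11 (14.7%) and 3.19%, and the ETS word CCGGAAGT in 5 (6.67%) and 4.31%. Uqcr11 was the only member with both the NRF1 and the ETS word. A match is a description of the letters and not a binding site. The windows before the start of the 3 members most abundant in WT PBS among those with the NRF1 word upstream are shown as examples, 5′ to 3′ on the strand of the gene, with the word in either orientation, or an overlapping pair, in capitals. They are Atp5l (chr9:44920743-44920992, minus strand), a subunit of the membrane part of the ATP synthase, with the word 240 bases before the start; Cox6a1 (chr5:115348959-115349208, minus strand), a complex IV subunit, with it 162 bases before; and Atp5k (chr5:108434400-108434649, minus strand), the e subunit of the ATP synthase, with it 50 bases before.
Atp5l: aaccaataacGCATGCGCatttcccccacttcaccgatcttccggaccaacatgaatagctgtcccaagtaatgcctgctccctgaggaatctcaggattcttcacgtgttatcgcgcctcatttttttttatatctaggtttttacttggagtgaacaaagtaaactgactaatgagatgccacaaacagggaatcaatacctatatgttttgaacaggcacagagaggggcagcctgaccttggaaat
Cox6a1: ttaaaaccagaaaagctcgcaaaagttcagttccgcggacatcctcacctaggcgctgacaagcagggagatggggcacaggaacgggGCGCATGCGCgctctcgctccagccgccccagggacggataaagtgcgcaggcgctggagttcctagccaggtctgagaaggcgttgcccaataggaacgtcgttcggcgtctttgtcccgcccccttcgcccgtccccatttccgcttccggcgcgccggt
Atp5k: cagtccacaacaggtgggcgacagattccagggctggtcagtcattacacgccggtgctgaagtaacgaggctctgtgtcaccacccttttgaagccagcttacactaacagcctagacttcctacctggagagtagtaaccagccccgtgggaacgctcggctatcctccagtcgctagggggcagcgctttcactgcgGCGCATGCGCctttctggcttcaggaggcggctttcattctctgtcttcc

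These 3 genes also show the WT response. Atp5l went from 283 and 308 FPKM under PBS to 768 and 836 under NMDA, Cox6a1 from 241 and 222 to 746 and 817, and Atp5k from 193 and 209 to 752 and 861. Both NMDA libraries stood above both PBS libraries in each of them, as they did in 91 of 94 members and 36.9% of all genes. Atp5k is a tested member like the others, but it is named here for its sequence and abundance and not by the rule for naming single genes given below.

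The transcripts of the factors themselves were also measured. Of 12 regulators of respiratory genes, 3 were higher and 5 lower in WT after NMDA, with a median log2 difference of 0.09, where 26% of all genes were higher and 33.8% lower. With TPM 1 was higher and 6 lower, with a median of -0.48. *Ppargc1a*, the coactivator PGC-1α, fell from 9.61 and 8.66 to 2.12 and 2.43 FPKM, and *Gabpa*, the DNA-binding subunit of GABP, from 13.8 and 12.3 to 3.94 and 4.68. *Ppargc1b* and *Yy1* also fell, by 0.75 and 1.10 on the log2 scale. *Polrmt*, the mitochondrial RNA polymerase, rose from 11.8 and 11.7 to 63.6 and 48.5 FPKM, with *Pprc1* (1.03) and *Esrra* (0.42) also higher. *Nrf1* (0.25) and *Tfam* (0.51) were not called. The length dependence in WT applies to these values too. Over all genes the median log2 difference there was 0.85 under 1 kb and -1.07 over 4 kb. The part of length in the changes of single regulators was not tested. In sh*Pax6* 1 regulator was higher and 1 lower, and in JNK3 KO none of 12 was called by limma (1 higher and 1 lower at an unadjusted p below 0.05).

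In sh*Pax6* retina the chain responded little to NMDA. Of 94 members 20 were higher and 0 lower at an adjusted p below 0.05 in limma, where 19.1% of all genes were higher and 11% lower. At an unadjusted p below 0.05, 29 members were higher and 3 lower, but the share of all genes at that threshold was not computed. The members had a median of 0.09 and all genes 0.10. At an unadjusted p below 0.05 and an absolute log2 difference above 1, 2 members were higher and 1 lower, against 10.2% of all genes higher. The sum of all members was 14501 and 13996 FPKM under PBS and 15189 and 15794 under NMDA, so the groups did not overlap but lay far closer than in WT. Fixed core members such as Cox4i1 (420 and 424 to 450 and 466 FPKM, log2 0.12, adjusted p = 0.15) and Atp5b (648 and 648 to 674 and 649, log2 0.03, adjusted p = 0.742) were not called. The direction of the median depended on the scaling: it was -0.03 with 75th-percentile scaling, -0.05 with quantile normalization and -0.14 after the correction for length, which called 5 members higher and 25 lower, against 13.7% and 15.2% of all genes.

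The 20 of 94 members that rose in sh*Pax6* were close to the share of all genes that rose, 19.1%. They were 9 of 39 in complex I, 1 of 8 Ndufaf factors and 2 of 4 in complex II. Complex III had 1 of 9, complex IV 4 of 17 and complex V 3 of 17. The largest rises were those of Ndufa4l2 and Cox7a1. Ndufa4l2, a hypoxia-inducible paralog of Ndufa4 at chr10:127514967-127517154, went from 0.10 and 1.35 to 12.4 and 9.35 FPKM, a log2 difference of 4.33 (SE 0.77, adjusted p = 0.00272). Cox7a1, the heart and muscle isoform at chr7:30184144-30186078, went from 1.32 and 8.15 to 23.8 and 19.3 FPKM, a log2 difference of 2.65 (SE 0.62, adjusted p = 0.0113). The 2 PBS libraries of sh*Pax6* disagreed for both genes, and both p-values rest on that spread. With a library left out, the log2 difference was 2.90 to 5.76 for Ndufa4l2 (2.90 without PBS replicate 1) and 1.38 to 3.92 for Cox7a1 (1.38 without PBS replicate 1). With only the spread of the 2 groups compared, Ndufa4l2 was not called (adjusted p = 0.131), and Cox7a1 was not called without either NMDA library (adjusted p = 0.0824 and 0.0515, limma). Sdhc rose by 0.50 (adjusted p = 0.0103), from 61.4 and 69.6 to 94.4 and 91.0 FPKM, Sdhb by 0.29 (adjusted p = 0.00991) and Uqcr11 by 0.47 (adjusted p = 0.00309). The protein-coding fit called 19 higher and 2 lower, against 19.7% of genes higher.

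In JNK3 KO retina the response had the opposite sign. Of 94 members 0 were higher and 25 lower at an adjusted p below 0.05 in limma, against 4.33% of all genes higher and 6.1% lower. The median was -0.25 against -0.01. At an unadjusted p below 0.05 alone, 0 members were higher and 52 lower, but the share of all genes at that threshold was not computed. At an unadjusted p below 0.05 with a log2 difference below -1, 0 members were lower, against 3.24% of all genes. Complex I had 13 of 39 lower, complex IV 6 of 17, complex V 4 of 17, complex III 1 of 9, the Ndufaf factors 1 of 8 (Ndufaf5, -0.46) and complex II 0 of 4. In 74 of 94 members both NMDA libraries stood below both PBS libraries, against 32.8% of all genes.

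Ndufa4 went from 712 and 693 to 510 and 492 FPKM, a log2 difference of -0.49 (SE 0.06, adjusted p = 0.00131). Cox7a2l went from 189 and 179 to 132 and 133 (-0.47, SE 0.05, adjusted p = 0.000569), and Cox4i1 from 476 and 437 to 355 and 359 (-0.35, SE 0.06, adjusted p = 0.00516). Cox6c (-0.39), Cox7a2 (-0.33), Uqcrh (-0.39), Atp5j2 (-0.38) and Atp5b (-0.33) were also lower. The largest fall among those called was that of Cox6b2, the testis isoform of subunit VIb, from 16.42 and 16.04 to 8.14 and 10.6 FPKM (-0.80, SE 0.18, adjusted p = 0.0242), a call not made without any 1 of the 4 libraries (adjusted p = 0.0526 to 0.176). Sdha, at 138 and 150 under PBS and 139 and 138 under NMDA, was the lowest of complex II at -0.06. With 1 library left out at a time the count of lower members was 5 to 12, so the calls rest on all 4 libraries: it was 6 without PBS replicate 1, 12 without PBS replicate 2, 5 without NMDA replicate 1 and 7 without NMDA replicate 2. Protein-coding models alone gave 28 lower, against 7.36% of genes, and the correction for length 10 lower, against 5.16%.

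The fall in JNK3 KO began from a higher level under PBS. Compared with WT PBS, 82 of 94 members had both JNK3 KO PBS libraries above both WT libraries, against 27% of all genes, and the median log2 difference was 0.29 against 0.00. At an unadjusted p below 0.05, 65 members were higher and 0 lower, but the share of all genes at that threshold was not computed. At the adjusted threshold 10 were higher and 0 lower, against 1.1% and 0.407% of all genes: Ndufa7, Uqcrh, Cox4i1, Cox5a, Cox6a1, Cox6c, Cox7a2, Atp5b, Atp5g2 and Atp5md. Complex IV held 5 of the 10. The knockout summed to 17078 and 16112 FPKM before NMDA and 13932 and 13707 after it, and WT PBS to 13130 and 13988, so the knockout after NMDA lay within the range of the 2 WT PBS libraries. Both comparisons use the same 2 JNK3 KO PBS libraries, so a deviation of those libraries would appear in both with opposite sign. With 1 library left out at a time, 0 to 2 members were called.

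The largest baseline difference among the calls in JNK3 KO was Cox6a1, at 434 and 388 FPKM against 241 and 222 in WT PBS, a log2 difference of 0.83 (SE 0.09, adjusted p = 0.00652). In JNK3 KO NMDA it was at 346 and 339. Cox4i1 was higher by 0.32, Cox5a by 0.37, Atp5b by 0.40 and Atp5md, a small membrane subunit of the ATP synthase, by 0.41.

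Between sh*Pax6* and WT under PBS 9 members were higher and 1 lower, against 5.36% and 11.2% of all genes, with a median of 0.04 against -0.06. Cox6a2 stood out at 5.11 (SE 0.81, adjusted p = 0.003). Its FPKM were 0.08 and 0.00 in WT PBS and 3.65 and 5.62 in sh*Pax6* PBS, so the size depends on the pseudocount, and it was 2.42 with a pseudocount of 1. The others lay between 0.19 and 0.52: Ndufa7, Ndufb2, Uqcrq, Cox4i1, Atp5e, Atp5j2, Atp5l and Atp5md. Ndufa3 was lower, by 0.51 on the log2 scale.

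Several subunits exist as a common and a tissue-restricted isoform. Their values are given side by side, and differences between isoforms were not tested. Cox4i1 outnumbered Cox4i2, the hypoxia-responsive isoform at chr2:152754173-152765037, in every library. Cox4i2 went from 23.4 and 20.6 to 64.0 and 64.9 FPKM in WT (1.55, SE 0.10), beside 1.61 for Cox4i1. In sh*Pax6* Cox4i2 rose from 27.0 and 28.0 to 52.4 and 48.8 FPKM (0.88, SE 0.10, adjusted p = 0.000197) beside 0.12 for Cox4i1. In JNK3 KO it was at 27.7 and 33.0 and then 24.0 and 24.2 (-0.33, adjusted p = 0.0666).

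Cox6a2, the heart and muscle isoform at chr7:128205435-128206387, lay between 0 and 5.62 FPKM in all libraries while Cox6a1 lay between 222 and 817. It was highest in sh*Pax6* under PBS, where NMDA left it at 1.04 and 1.22 (-1.92, SE 0.81, adjusted p = 0.107). In WT NMDA the 2 libraries were at 0.07 and 1.18, and the difference of 1.80 was not called. Cox7a1 rose in WT too, from 5.03 and 5.10 to 20.9 and 18.1 FPKM (1.92, SE 0.62, adjusted p = 0.0241), beside 1.59 for Cox7a2 and 1.05 for Cox7a2l. The call of Cox7a1 was not made without any 1 of the 4 WT libraries (adjusted p = 0.0767 to 0.106). Skeletal muscle marker transcripts were also higher in WT NMDA, at 19.6 to 27.1 summed FPKM against 4.4 to 7.8 in the other groups. Myh2 was at 0 in all groups. Of the 12 markers 3 were tested, and after NMDA 2 were higher in WT and 0 in sh*Pax6*. In sh*Pax6* NMDA the markers summed to 5.26 to 6.97 FPKM, while Cox7a1 was at 23.8 and 19.31 FPKM. The part of muscle transcripts in the values of Cox7a1 was not tested.

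Cox6b1 and Cox6b2 rose together in WT, by 1.49 and 1.70. Cox6b2 went from 9.0 and 8.64 to 28.1 and 29.8 FPKM there, and in sh*Pax6* from 6.20 and 9.08 to 11.4 and 11.8 (0.62, SE 0.18, adjusted p = 0.0282). Cox7b rose in WT from 122 and 118 to 384 and 351 FPKM (1.62), while Cox7b2 reached at most 0.52 FPKM. Cox8a rose in WT from 389 and 384 to 925 and 879 FPKM (1.22). Cox8b, its muscle isoform, differed most between replicates of all tested members, with 0.00 and 6.24 FPKM under PBS in sh*Pax6*, and Cox8c was listed at 0 in every library. Ndufa4l2 was at 1.61 and 0.92 FPKM in WT PBS and 3.10 and 2.5 in WT NMDA (1.13, SE 0.77, adjusted p = 0.236), at 12.4 and 9.35 in sh*Pax6* NMDA, and between 0.52 and 1.12 in JNK3 KO.

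The 3 Atp5g genes encode the same mature c subunit of the ATP synthase ring from different precursors. In WT PBS Atp5g1, Atp5g2 and Atp5g3 made up 23.5% and 25.2%, 28.2% and 28.1%, and 48.2% and 46.6% of their summed FPKM. In WT NMDA the shares were 34.7% and 37.0%, 29.0% and 28.1%, and 36.3% and 34.9%, so the share of Atp5g1 was higher and that of Atp5g3 lower in both libraries. Their log2 differences were 1.85, 1.31 and 0.88, and their sum went from 618 and 634 to 1497 and 1563 FPKM. In sh*Pax6* all 3 rose as well, by 0.35 (adjusted p = 0.0262), 0.58 (adjusted p = 0.000207) and 0.27 (adjusted p = 0.00252), with Atp5g2 moving most. In JNK3 KO none of the 3 was called and the sum went from 746 and 735 to 680 and 682. Reads in sequence shared between such copies can be split between genes, which bounds the precision of these shares. The same applies to Ndufb4, at 21.5 and 22.6 FPKM in WT PBS, and Ndufb4c, annotated as a processed pseudogene, at 170 and 177.

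**Figure D5:**
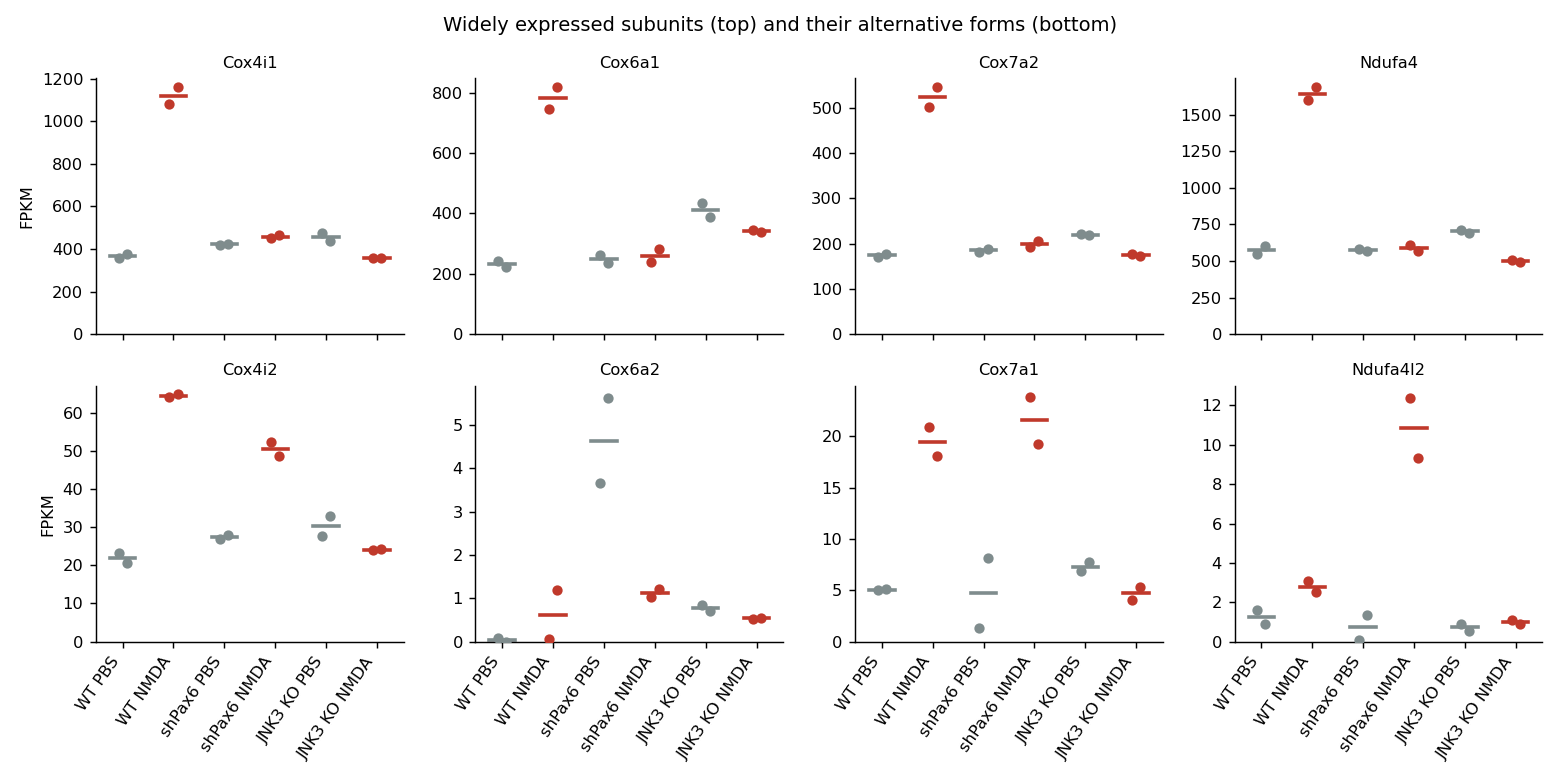
FPKM of Cox4i1, Cox6a1, Cox7a2 and Ndufa4 (top row) and of Cox4i2, Cox6a2, Cox7a1 and Ndufa4l2 (bottom row), with axes from 0, 1 point per library and a bar at the mean of each of the 6 groups. Ndufa4l2 reaches 12.4 and 9.35 FPKM in shPax6 NMDA and at most 3.10 elsewhere.

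The responses themselves were compared by interaction terms, which share the WT or the JNK3 KO libraries with each other. The WT response exceeded that of sh*Pax6* in 83 of 94 members and fell below it in 1, against 18.3% and 31.4% of all genes, with a median difference of 1.39 against -0.28. It exceeded that of JNK3 KO in 86 and fell below it in 0, against 23.5% and 27.9%, with a median of 1.77 against -0.03. The sh*Pax6* response exceeded that of JNK3 KO in 37 and fell below it in 0, against 12.1% and 5.62%, with a median of 0.36 against 0.10. All 3 comparisons depended on length: after the correction their medians were 0.77, 0.74 and -0.0021. With coding models and the correction they were 0.35, 0.34 and -0.0018. The count of the last comparison was 19 without JNK3 KO PBS replicate 1, 18 without JNK3 KO NMDA replicate 1 and 19 without JNK3 KO NMDA replicate 2. Atp5e had the largest difference between WT and JNK3 KO, at 2.7 (SE 0.13, adjusted p = 8.5e-07). In JNK3 KO its FPKM were 314 and 278 under PBS and 252 and 242 under NMDA. The member whose response was below that of sh*Pax6* in WT was Ndufa4l2 (-3.21, SE 1.08, adjusted p = 0.0349), which was not called without any 1 of the WT libraries or either sh*Pax6* NMDA library (adjusted p = 0.0591 to 0.119).

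The 13 subunits encoded in mitochondrial DNA, which share complexes I, III, IV and V with the members, did not follow them. In WT 3 were higher (mt-Nd6, mt-Co2 and mt-Atp6) and 8 lower after NMDA, where 26% of all genes were higher and 33.8% lower. The median log2 difference of the 13 was -0.70, and their summed FPKM went from 45003 and 45335 to 22953 and 23021. The nuclear members summed to 29.2% and 30.9% of the mitochondrially encoded FPKM under PBS and 171% and 179% under NMDA. In complex IV the figure went from 20.3% and 20.6% to 122% and 114%. mt-Co1, the catalytic subunit of complex IV, went from 10592 and 10917 to 3302 and 3163 FPKM (-1.73), and mt-Atp8 from 8120 and 7794 to 2005 and 1913 (-2.02). The calls of a rise were not stable to scaling: 0 were higher with TPM and after the length correction, and 1 with quantile normalization.

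In sh*Pax6* 0 of the 13 were higher and 7 lower (median -0.33; 0 and 1 with quantile normalization, median -0.11), where 19.1% of all genes were higher and 11% lower. The nuclear sum went from 33.9% and 28.1% to 41.3% and 47.9% of the mitochondrial sum. In JNK3 KO the direction turned for both. There 6 of the 13 were higher and 0 lower (median 0.33), where 4.33% of all genes were higher and 6.1% lower. With quantile normalization 4 were higher and 1 lower. The sum of the 13 rose from 35958 and 38806 to 55539 and 52682 FPKM, and the nuclear sum went from 47.5% and 41.5% to 25.1% and 26.0% of it. mt-Atp8 rose from 5089 and 5424 to 18848 and 18104 FPKM (1.81), which made up most of the rise of the mitochondrial sum. In complex V, which holds mt-Atp8, the nuclear figure went from 97.0% and 87.2% to 22.9% and 23.4%. It went from 47.4% and 39.9% to 26.8% and 28.7% in complex I. In complex IV it went from 33.8% and 30.0% to 24.5% and 25.3%, and in complex III from 23.5% and 20.7% to 20.7% and 20.5%. mt-Atp8 overlaps mt-Atp6, and mt-Nd4l overlaps mt-Nd4, so reads there can be assigned to either gene, and poly(A) selection captures mitochondrial transcripts unevenly.

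Genes around the chain were counted against the same 26% higher and 33.8% lower of all genes in WT. Of 78 mitochondrial ribosomal protein genes, whose products translate the 13 mitochondrial messages, 72 were higher and 0 lower (median 1.34), with 14 higher and 1 lower in sh*Pax6* and none called in JNK3 KO (medians 0.18 and -0.07), where 3 were higher and 6 lower at an unadjusted p below 0.05. With the length correction 58 were higher and 1 lower in WT (median 0.55), and 3 higher and 9 lower in sh*Pax6* (median -0.06). Of the 19 tested complex IV assembly genes 11 were higher and 4 lower (median 0.72; with TPM 8 and 6 of 20, median 0.14), of 9 other complex I assembly genes 4 and 0 (0.28), of 4 for complex II 3 and 1 (0.80), of 6 for complex III 3 and 0 (0.38) and of 3 for complex V 1 and 1 (0.18). In sh*Pax6* 2 of the complex IV assembly genes were higher and 1 of the other complex I assembly genes lower, and in JNK3 KO 1 gene each of the complex III and complex IV lists was lower. Of 13 citrate cycle genes 6 were higher and 5 lower (median 0.06), and with TPM 3 and 7 (median -0.51). *Cycs*, cytochrome c, which carries electrons between complexes III and IV and triggers apoptosis when released, went from 37.7 and 34.8 to 86.0 and 63.6 FPKM in WT (1.03), and was also higher in sh*Pax6* (0.45) and lower in JNK3 KO (-0.62). These groups were set by name or from general knowledge of the pathway.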

How the data were processed

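RNA-seq of 12 mouse retina libraries in 6 groups of 2 was used. The authors aligned paired reads to GRCm38.p6 with STAR 2.7.1a, estimated abundance with RSEM 1.3.3 and used edgeR 3.36.0 in R 4.1.0, per the labels, and they deposited FPKM per gene and per transcript. FPKM are relative to length and to each library's total. The number of reads behind a value is thus unknown, and precision was judged from replicates (SD of the median member 0.040 on the log2 scale). Use of strand in counting is not given in the sources used here. No column was left unmapped.

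FPKM were transformed to log2(FPKM + 0.1), and genes whose mean exceeded 1 FPKM in 1 or more groups were kept. limma 3.58.1 (lmFit, eBayes with trend) fitted the 6 means, leaving 6 residual degrees of freedom, in R 4.3.3, and calls used a Benjamini-Hochberg adjusted p below 0.05 over all 16471 genes, two-sided. Counts at an unadjusted p below 0.05 alone are given for members and lists without a share of all genes, which was not computed. An unadjusted p below 0.05 with an absolute log2 difference above 1 was counted beside the adjusted calls. The study used these limits on transcripts in edgeR with a further limit on the variance-mean ratio, which was not applied here. The fit was tested on simulated data. Lengths, models and coordinates came from GENCODE M21 and promoters from RefSeq. The length correction subtracted from each library its lowess trend on log length (span 0.3). Tables were handled with pandas 2.3.3 and numpy 2.4.6 and figures drawn with matplotlib 3.10.9.

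Named genes were core subunits, isoform sets, the highest and lowest member of each complex in each comparison, the 13 mitochondrially encoded genes, Cycs and the regulators. Other genes called in a comparison, those lost with coding models and the promoter examples were named after their values were seen. The values of 1 gene that this rule selects are not reported here. The members and lists were chosen with earlier results of these data known. Alternatives were pseudocounts, filters, TPM, 75th-percentile and quantile scaling, the length correction, the most abundant transcript of each gene, no trend, the spread of the groups compared alone, a replicate block and leaving out each library, and, added after the data were seen, protein-coding models with and without the length correction.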

Additional observations from a re-analysis of the deposited data

Results flagged for a closer look

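The NMDA response of members was compared between genotypes by a test of the difference itself. The WT response exceeded that of shPax6 in 83 members and was below it in 1 (18.3% and 31.4% of all genes), and exceeded that of JNK3 KO in 86 (23.5%). With the length correction the median differences of these 2 comparisons were 0.77 and 0.74, against 1.39 and 1.77 without it. The shPax6 response exceeded that of JNK3 KO in 37 (12.1%), but this count was 18 to 35 with a library left out, and with the length correction 4 members were higher and 3 lower. At the extremes, the WT response minus that of shPax6 was 3.71 for Cox6a2 (SE 1.14, adjusted p = 0.0236, limma) and -3.21 for Ndufa4l2 (SE 1.08, adjusted p = 0.0349). WT minus JNK3 KO was 2.7 for Atp5e, and shPax6 minus JNK3 KO was 3.87 for Ndufa4l2 (SE 1.08, adjusted p = 0.0386). Cox6a2 and Ndufa4l2 lay under 13 FPKM in every library. With any 1 of 6 of the 8 libraries left out, the WT minus shPax6 difference of Ndufa4l2 was not called, and that of Cox6a2 was not called without any 1 of 4. The shPax6 minus JNK3 KO difference of Ndufa4l2 was not called without any 1 of 6 libraries, nor with a replicate block (adjusted p = 0.0556).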

How the results depend on the processing

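The medians over members moved with the scaling of the libraries and with length. In WT the median NMDA response was 0.94 with TPM, 1.43 with 75th-percentile scaling, 0.68 with quantile normalization, 0.62 with the length correction and 0.17 with coding models and that correction; TPM moved the median of all genes to -0.68. In shPax6 these were 0.042, -0.028, -0.045, -0.14 and -0.15, so the sign turned in 4 of them. In JNK3 KO the response was -0.15 with quantile normalization, -0.12 with the length correction and -0.12 with coding models as well. For JNK3 KO against WT under PBS it was 0.23 with TPM, 0.24 with 75th-percentile scaling, 0.16 with quantile normalization, 0.14 with the length correction and 0.11 with coding models as well, and for shPax6 against WT 0.095 with the length correction. For WT minus shPax6 the difference of responses was 0.87 with TPM, 0.66 with quantile normalization, 0.77 with the length correction, 1.35 with coding models and 0.35 with both. For WT minus JNK3 KO it was 1.17, 1.68 with 75th-percentile scaling, 0.85, 0.74 and 0.34, and for shPax6 minus JNK3 KO 0.29, 0.24, 0.11, -0.0021 and -0.0018. The cause was not tested. Leaving out each library gave 1.45 to 1.55 for WT, 0.088 to 0.15 for shPax6, -0.31 to -0.18 for JNK3 KO, -0.00 to 0.08 and 0.23 to 0.34 for shPax6 and JNK3 KO against WT under PBS, and 1.35 to 1.44, 1.74 to 1.84 and 0.33 to 0.43 for the differences.

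Counts of calls moved too. In WT 84 to 86 members were higher with a library left out, 78 with TPM, 76 with quantile normalization, 76 with the length correction and 39 with coding models and that correction. In shPax6 the higher members were 20 as reported, 14 to 18 with a library left out, 7 without a filter, 10 with 75th-percentile scaling, 10 with quantile normalization, 13 with the most abundant transcript, 5 with the length correction and 2 with the groups' own spread. In JNK3 KO the 25 lower members became 6 without a filter, 14 with quantile normalization, 11 without the trend and 5 to 12 with a library left out. The 10 higher in JNK3 KO under PBS became 0 without a filter, 0 without the trend, 1 with quantile normalization, 2 with TPM, 3 with 75th-percentile scaling and 0 to 2 with a library left out, and the 9 higher in shPax6 under PBS became 1 without a filter, 15 with the length correction and 1 to 6 with a library left out. Replicate numbers did not pair the libraries (correlation of deviations -0.097 to 0.086 over 15 pairs of groups). With a replicate block 21 members were lower in JNK3 KO, 19 higher in shPax6 and 6 higher in each comparison under PBS.

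Single genes turned sign in WT as follows. With TPM Atp5a1 was -0.092, Ndufaf4 -0.14, Ndufs1 -0.38, Sdhc -0.036 and Sdhd -0.12. With quantile normalization Atp5a1 was -0.47, Atp5g3 -0.15, Cox8a -0.12 and Ndufs1 -0.15. With the length correction Atp5g3 was -0.12, Sdhc -0.43 and Sdhd -0.30. From the most abundant transcript Ndufs1 was -0.044, and from coding models -0.50. With coding models and the length correction Atp5b was -0.30, Atp5g3 -0.40, Cox6c -0.12, Cox8a -0.22, Ndufa4 -0.026, Ndufaf4 -0.62, Ndufs1 -0.40, Sdhc -0.66 and Sdhd -0.41. In shPax6, the most abundant transcript gave Cox6b2 -0.56 and Sdhc -0.015. Over 73 named results, 988 values under alternatives kept direction and side of the threshold, 317 lost the call and 25 turned sign. Without read counts, no limit of detection can be given for genes near 0 such as Cox6a2 and Cox8b.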
